A study of Mus musculus with 8 samples.

Results

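The genes described here encode the mitochondrial respiratory chain and the ATP synthase that it drives. They were chosen by symbol. The nuclear members have names that begin with Nduf, Uqcr or Atp5, with Sdha to Sdhd, or with Cox4 to Cox8. The mitochondrial members have names that begin with mt-Nd, mt-Co, mt-Cytb or mt-Atp. A member also needed at least 20 UMIs summed over the 4 gene expression libraries (a UMI, or unique molecular identifier, marks 1 captured RNA molecule). Of 33696 genes listed, 114 had a matching name and 110 of those reached 20 UMIs. The 4 left out were Cox7b2, Cox8b, Cox8c and Ndufb11b, the testis- and muscle-type or duplicate subunit genes, with at most 1 UMI each. Of the 110 members, 97 lie in the nuclear genome and were grouped by name. They are 40 complex I subunits or related genes, 8 complex I assembly factors, 4 complex II subunits and 4 complex II assembly factors, with 8 complex III subunits, 16 complex IV subunits or related genes and 17 ATP synthase subunits. Ndufa4, since assigned to complex IV, and Ndufb4b, annotated as a long non-coding RNA, are counted under complex I by name. The other 13 are the protein-coding genes of mitochondrial DNA: 7 of complex I, 1 of complex III, 3 of complex IV and 2 of the ATP synthase.

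Leukocytes from liver metastases were compared between 2 Vav1CreTet2KO mice (here knockout mouse 1 and knockout mouse 2) and 2 Tet2fl/fl mice (control mouse 1 and control mouse 2). Both groups carry loxP-flanked Tet2, and the knockout mice add Cre under the Vav1 promoter, which is active across blood cell lineages, so the deletion is not limited to 1 leukocyte type. All 4 mice had been injected in the spleen with Venus-AKTPM/LOH colorectal cancer cells, and live CD45+ cells were sorted from the liver tumours at day 30. Each mouse gave a 5' gene expression library and a T cell receptor library. The labels name the mice as biological replicates and give neither age nor sex.

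The respiratory chain sits in the inner mitochondrial membrane. Complex I and complex II pass electrons from NADH and succinate to ubiquinone, complex III passes them on to cytochrome c, and complex IV passes them to oxygen. Complexes I, III and IV pump protons, and the ATP synthase uses the resulting gradient to make ATP. Complexes I, III and IV and the ATP synthase are built from subunits of both genomes, whereas complex II is wholly nuclear, so the RNA of the nuclear and the mitochondrial members is given apart. Activated macrophages, dendritic cells and T cells are known to shift between glycolysis and respiration.

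The libraries held 10917 and 11743 barcodes in the knockout mice and 12494 and 13870 in the control mice, with 57190926 to 91789597 UMIs each. Median UMIs per barcode were 3739 and 3726 in the knockout mice and 6639 and 6225.5 in the control mice. After removal of barcodes with over 10% mitochondrial UMIs and of called doublets, 10432 to 13083 cells per mouse were used, and each pair of libraries shared 272 to 303 barcodes. Tet2, the targeted gene, stood at 37.8 and 32.3 CPM (counts scaled to a total of 1000000) in the knockout libraries and 67.2 and 65.9 in the control libraries. Within monocyte/macrophage-like cells it fell by 0.59 on the log2 scale (± 0.10 SE, adjusted p = 0.0106, edgeR's quasi-likelihood test). It passed in this 1 of the 8 classes fitted. The groups overlapped in neutrophil-like cells (85.3 and 82.1 against 113 and 77.7 CPM, adjusted p = 0.696), CD4 conventional T cells and plasma-like cells. Cells were classed by marker genes and carry the suffix "-like", and the makeup differed between genotypes. B-like cells numbered 4397 and 4946 in the knockout mice and 692 and 622 in the control mice, and monocyte/macrophage-like cells 1209 and 1490 against 6849 and 8219.

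The mitochondrial members are packed so closely that 4 pairs share bases, which bears on how their UMIs can be read. The 3 longer overlaps are shown on the plus strand of the GRCm39 reference, with the shared bases in capitals and 15 bases on each side.
mt-Atp8 and mt-Atp6: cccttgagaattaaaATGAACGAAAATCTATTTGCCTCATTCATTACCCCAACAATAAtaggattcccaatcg
mt-Nd4l and mt-Nd4: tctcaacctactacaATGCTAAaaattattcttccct
mt-Nd5 and mt-Nd6: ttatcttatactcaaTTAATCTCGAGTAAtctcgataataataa
The mt-Atp8 and mt-Atp6 frames overlap by 43 bases (chrM:7927-7969), and each pair of mt-Atp8 with mt-Atp6 and mt-Nd4l with mt-Nd4 is known to lie on 1 messenger RNA. The mt-Nd4l and mt-Nd4 overlap is 7 bases (chrM:10167-10173). mt-Nd5 and mt-Nd6 overlap by 14 bases (chrM:13552-13565) on opposite strands, and mt-Nd6 is the sole member encoded on the minus strand. mt-Atp6 and mt-Co3 share 1 base (position 8607). How reads within an overlap were assigned is not given in the sources used here, so a value of mt-Atp8 or mt-Nd4l alone is uncertain.

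The share of a cell class's UMIs that came from the members was first compared between classes, as a mean ± SD over the mice of both genotypes. The mitochondrial members took 1.33 ± 0.117% of UMIs in B-like cells (n = 4) and 1.26 ± 0.149% in plasmacytoid dendritic-like cells (n = 3, since control mouse 1 had only 4 such cells). CD8 T cells (0.889 ± 0.104%), CD4 conventional T cells (0.869 ± 0.0644%), monocyte/macrophage-like cells (0.852 ± 0.169%) and NK-like cells (0.806 ± 0.0949%) followed, and these did not differ beyond their spread. Proliferating cells were at 0.739 ± 0.112%, plasma-like cells at 0.643 ± 0.117%, conventional dendritic-like cells at 0.643 ± 0.101% and neutrophil-like cells at 0.554 ± 0.118%.

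The nuclear members gave another order. Their share was 2.84 ± 0.366% in proliferating cells, 2.52 ± 0.228% in plasmacytoid dendritic-like cells and, for monocyte/macrophage-like cells, 2.42 ± 0.318%. NK-like cells (2.33 ± 0.116%), conventional dendritic-like cells (2.31 ± 0.292%), CD4 conventional T cells (2.17 ± 0.318%) and CD8 T cells (2.11 ± 0.250%) had overlapping ranges over mice, above B-like cells (1.65 ± 0.123%), plasma-like cells (1.63 ± 0.187%) and neutrophil-like cells (1.49 ± 0.0914%). Within each mouse the NK-like share was above the CD8 T share, by least in control mouse 2 (2.47 against 2.46%). Differences between classes were not tested. B-like cells were thus first of the classes for the mitochondrial members and among the lowest 3 for the nuclear ones. The ratio of nuclear to mitochondrial UMIs was 1.25 ± 0.101 in B-like cells and 2.01 ± 0.0903 in plasmacytoid dendritic-like cells, against 3.61 ± 0.241 in conventional dendritic-like cells and 3.85 ± 0.135 in proliferating cells. Cells with over 10% mitochondrial UMIs had been left out, 0.57 to 1.39% of barcodes per library, which caps the mitochondrial share.

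**Figure D1:**
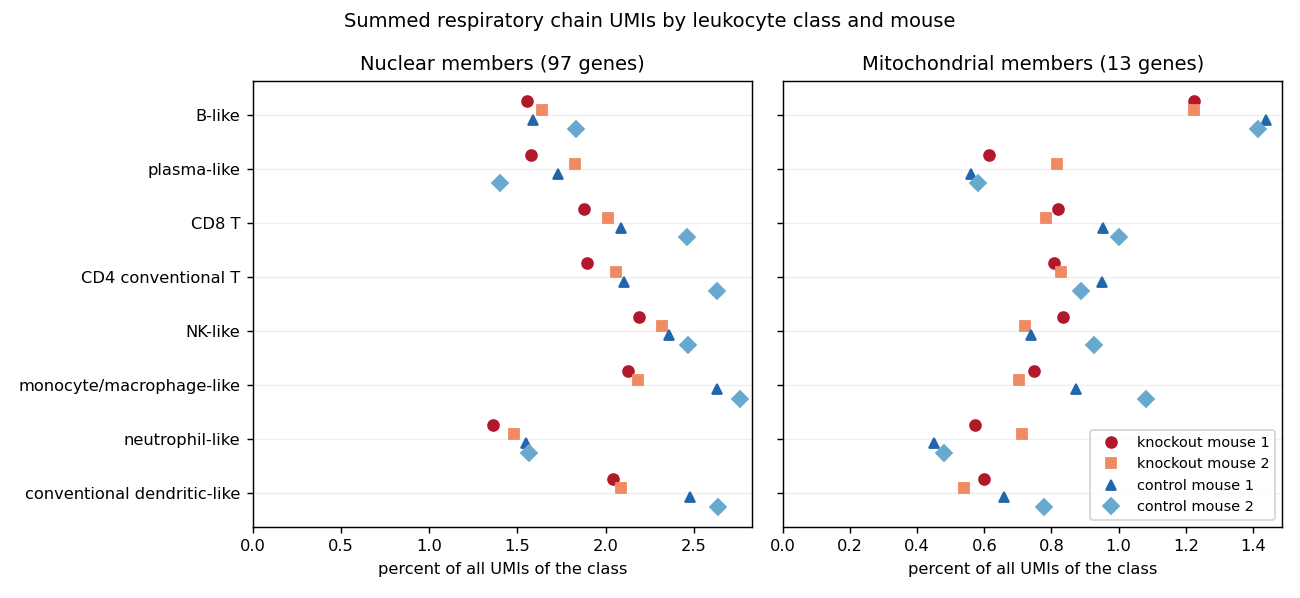
Share of a class's UMIs from the nuclear members and from the mitochondrial members (x axes, percent of all UMIs of the class) for the 8 classes tested (y axis), with 1 point per mouse. In monocyte/macrophage-like cells both knockout mice have lower shares than both control mice in each panel, and in neutrophil-like cells they are lower for the nuclear and higher for the mitochondrial members.

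Single members departed from this order, and the complex IV isoform pairs did so most. Cox6a2, the heart- and muscle-type isoform of a complex IV subunit, stood at 2152 ± 468 CPM in plasmacytoid dendritic-like cells (1870 to 2693 CPM in 3 mice, 5967 UMIs). It stood at 11.4 ± 4.46 CPM in NK-like cells, 5.80 ± 5.20 in conventional dendritic-like cells and 0.368 CPM in monocyte/macrophage-like cells, with 7 UMIs in all B-like cells and 0 in neutrophil-like cells. Cox6a2 was among the top genes of the plasmacytoid cluster by fold over other cells. The members had been left out of the genes used for clustering, and this level is a description. Cox6a1, its widely expressed counterpart, was 318 ± 13.5 CPM in the plasmacytoid cells and ran from 239 ± 2.55 CPM in B-like cells to 532 ± 116 in proliferating cells. Cox6b2, the testis-type isoform, was at 16.4 ± 0.491 CPM in conventional dendritic-like cells, 12.2 ± 2.82 in monocyte/macrophage-like cells and 1.46 ± 1.23 in B-like cells, while its counterpart Cox6b1 ran from 280 ± 30.3 CPM in B-like to 616 ± 122 in proliferating cells.

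Assembly factors also ranged widely between classes. Sdhaf1, which helps to place iron-sulfur clusters in complex II, was 165 ± 43.6 CPM in B-like cells, 84.9 ± 7.34 in CD4 conventional T cells, 50.2 ± 13.1 in CD8 T cells and 24.1 ± 4.44 in plasma-like cells. Ndufaf4, a complex I assembly factor, ran from 35.3 ± 5.26 CPM in B-like cells, close to both T cell classes, down to 5.18 ± 0.930 in neutrophil-like cells. Sdhaf4, another complex II assembly factor, ran from 33.7 ± 15.5 CPM in plasmacytoid dendritic-like to 6.43 ± 1.72 in neutrophil-like cells. Of the subunits, Ndufa5 of complex I ran from 123 ± 14.9 CPM in proliferating to 25.9 ± 5.13 in neutrophil-like cells. At the other end, the highest class mean of Ndufs7, which carries an iron-sulfur cluster of complex I, was 1.60 times the lowest, and that of Atp5e, the epsilon subunit of the ATP synthase, was 1.68 times the lowest. Ndufa2, Ndufa3 and Ndufaf8 had ratios of 1.74, 1.85 and 1.85.

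The genotypes were compared within each class on UMIs summed per mouse. In monocyte/macrophage-like cells, the tumour's most numerous myeloid class, respiratory chain RNA was lower in the knockout mice for both genomes. The nuclear members took 2.12 and 2.18% of UMIs in the knockout mice and 2.63 and 2.76% in the control mice, a log2 difference of -0.32. The mitochondrial members took 0.748 and 0.704% against 0.873 and 1.08%, a log2 difference of -0.42. Neither pair of groups overlapped, and the exact two-sided permutation test gave p = 0.33, the smallest that 2 mice against 2 allow. The ratio of nuclear to mitochondrial UMIs overlapped between genotypes (2.84 and 3.10 against 3.01 and 2.55). A lower share of a class's RNA and a different mix of cells within the class cannot be told apart from these sums alone.

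Gene by gene, 96 of the 97 nuclear members were tested in these cells (all but Ndufa4l2) and 59 were lower and 1 was higher at an adjusted p under 0.05 (edgeR's quasi-likelihood test, Benjamini-Hochberg adjustment over 14354 genes). Over all genes tested, 11.4% were called lower and 10.7% higher. The median log2 change of the nuclear members was -0.48, with 91 of 96 below 0, beside 0.03 over all genes. Of the 13 mitochondrial members, 6 were lower and none higher, with a median of -0.61 and 12 below 0. In 82 nuclear and 12 mitochondrial members both knockout mice lay below both control mice, beside 31.9% of all genes. In 2 nuclear members both lay above, beside 35.0% of all genes. Scaling by library totals alone moved the median of all genes by 0.17, and the medians of the members were then -0.34 and -0.46.

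Complex I, the largest of the complexes and the entry point for NADH, held 27 of the 59 by gene name, Ndufa4 among them. Ndufv3, an accessory subunit of its NADH-binding module, was at 131 and 132 CPM in the knockout mice against 235 and 268 in the control mice, and fell by 0.93 on the log2 scale (± 0.11 SE, adjusted p = 0.00338). Ndufs6, which binds zinc and is needed for the last steps of assembly, was at 68.6 and 81.2 against 129 and 145 CPM (log2 -0.87 ± 0.13, adjusted p = 0.00593). Ndufb6 of the membrane arm was at 106 and 120 against 198 and 200.5 CPM, and Ndufa9 at 38.8 and 38.5 against 65.4 and 67.9 CPM. In each of these 4 genes the knockout mice lay well below the control mice, and the distance between genotypes was larger than that between mice of 1 genotype. Ndufa12 (-0.77), Ndufa11 (-0.76), Ndufs5 (-0.68), Ndufs7 (-0.48), Ndufv1 (-0.50), which binds NADH, and Ndufa13 (-0.40, adjusted p = 0.0496) fell as well. Ndufa4, first placed in complex I and since assigned to complex IV, went from 351 and 403 CPM in control to 247 and 259 in knockout mice.

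Not every subunit of complex I moved. Ndufa3 was at 275 and 345 CPM in the knockout mice against 321 and 299 in the control mice, so the groups overlapped. Ndufa6 (337 and 351 against 376 and 500 CPM, adjusted p = 0.147) and Ndufa2 (240 and 260 against 320 and 323 CPM, adjusted p = 0.0519) did not pass. The 8 assembly factors were mixed. Ndufaf8 and Ndufaf3 fell by 0.59 and 0.46 on the log2 scale. Ndufaf7, a methyltransferase that acts on complex I during its assembly, was the sole nuclear member called higher, at 34.2 and 34.2 CPM in the knockout mice against 23.1 and 23.4 in the control mice (log2 0.56 ± 0.11, adjusted p = 0.0142). Ndufaf4 (-0.31) and the other 4 did not pass.

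In complex II, which is also an enzyme of the citric acid cycle, the membrane anchors fell and the catalytic subunits did not pass. Sdhc was at 51.1 and 52.8 CPM in the knockout mice against 84.0 and 89.7 in the control mice (log2 -0.74, adjusted p = 0.0051), and Sdhd at 95.0 and 95.9 against 125 and 143 CPM (log2 -0.49). The flavoprotein gene Sdha (70.8 and 69.5 against 77.0 and 86.0 CPM, adjusted p = 0.190) and the iron-sulfur gene Sdhb (187 and 163 against 209 and 218 CPM, adjusted p = 0.119) also did not overlap between genotypes but differed by less. A difference between anchors and catalytic subunits was not tested. Sdhaf2, which attaches flavin to Sdha, was at 21.7 and 27.8 against 41.7 and 46.1 CPM and fell by 0.83 on the log2 scale (± 0.15 SE, adjusted p = 0.0113). Sdhaf4 fell by 0.45, and Sdhaf1 overlapped (38.4 and 44.7 against 40.4 and 38.3 CPM).

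Complex III had 5 of 8 members lower. Uqcrq, a small subunit, was at 247 and 276 CPM in the knockout mice against 440.5 and 455 in the control mice (log2 -0.78 ± 0.11, adjusted p = 0.00593), with no overlap. Uqcrb fell by 0.54, and Uqcrfs1, the Rieske iron-sulfur protein, by 0.43 (adjusted p = 0.0448). The hinge protein gene Uqcrh overlapped (637 and 683 against 671 and 821 CPM), and Uqcrc1, a core subunit, had a log2 change of -0.34 that did not pass.

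Complex IV had 11 of 16 lower. Cox6a1 was at 283 and 304 CPM in the knockout mice against 465 and 497 in the control mice (log2 -0.71, adjusted p = 0.00732), Cox8a at 926 and 1020 against 1450 and 1652 CPM (log2 -0.67, adjusted p = 0.0140), and Cox4i1, a regulatory subunit, at 1022 and 1025 against 1375 and 1733 CPM (log2 -0.60, adjusted p = 0.0278). Cox6b1 (-0.56), Cox7a2 (-0.53) and Cox6c (-0.48) fell too. Cox7c overlapped between genotypes (560 and 664 against 621 and 559 CPM, log2 0.05). The largest log2 changes of the class belonged to scarce genes. Cox4i2, the hypoxia-type isoform of Cox4i1, was at 0.933 and 1.10 CPM against 2.33 and 3.71 (log2 -1.57, adjusted p = 0.0274), and Cox5b-ps, named as a pseudogene of Cox5b with which it may share reads, at 0.834 and 1.36 against 2.76 and 3.03 CPM (log2 -1.39, adjusted p = 0.0265). Cox6a2, Cox6b2, Cox7a1 and Cox7a2l, which is known for joining complexes III and IV into supercomplexes, did not pass (log2 0.25, -0.54, -0.59 and -0.22).

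Of the 17 ATP synthase genes, 10 were lower and the 17 all had a log2 change below 0. Atp5g3 and Atp5g1, which with Atp5g2 encode the identical c subunit of the membrane rotor, fell by 0.69 (443 and 460 against 688 and 769 CPM, adjusted p = 0.00952) and by 0.74, whereas Atp5g2 was at 633 and 633 against 672 and 720 CPM and did not pass. Atp5b and Atp5a1 fell by 0.48 and 0.50. Atp5e (810 and 957 against 1059 and 1037 CPM) had a log2 change of -0.25 that did not pass.

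**Figure D2:**
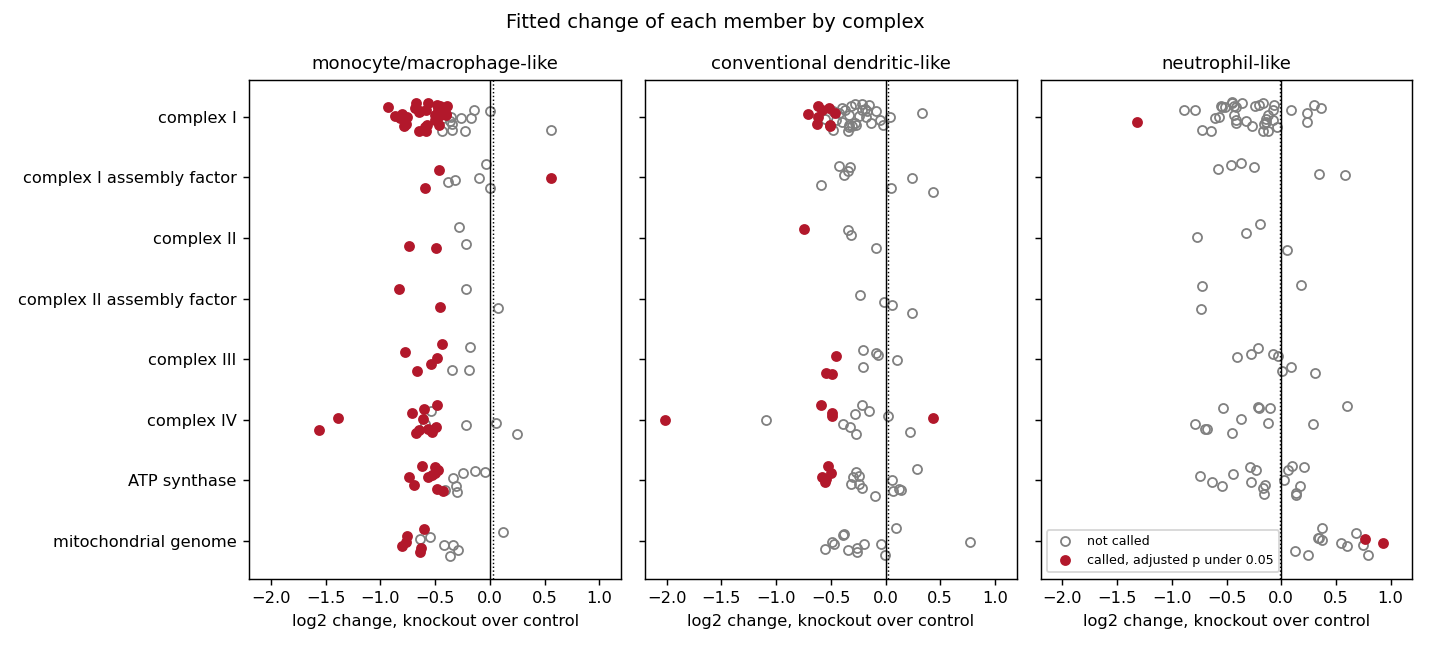
Log2 change of knockout over control mice (x axis) of each member tested, by complex for the nuclear members and together for the mitochondrial genome (y axis), in 3 classes, with filled points at an adjusted p under 0.05 and a dotted line at the median of all genes. Of the nuclear members 91 of 96 lie below 0 in monocyte/macrophage-like cells, and all 13 mitochondrial members lie above 0 in neutrophil-like cells.

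The mitochondrial members of the same cells showed the same direction with a wider spread in the control mice. mt-Nd5 was at 126 and 115 CPM in the knockout mice against 176 and 233 in the control mice (log2 -0.77, adjusted p = 0.0171), and mt-Nd4 at 217 and 212 against 300 and 428 CPM (log2 -0.76, adjusted p = 0.0274). mt-Nd1 was at 246 and 216 against 296 and 406 CPM (log2 -0.61, adjusted p = 0.0467). These are core membrane subunits of complex I, and in each of them control mouse 2 was the highest of the 4. The complex IV genes mt-Co3 (1163 and 1139 against 1565 and 2010 CPM, log2 -0.63, adjusted p = 0.0268) and mt-Co2 (1132 and 1176 against 1569 and 2006 CPM, log2 -0.63, adjusted p = 0.0270) fell as well. mt-Atp8 of the ATP synthase was at 107 and 167 against 254 and 225 CPM (log2 -0.81 ± 0.22, adjusted p = 0.0487).

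The other 7 missed the threshold, 4 of them narrowly. mt-Atp6 was at 880 and 756 against 1056 and 1494 CPM (adjusted p = 0.0511), mt-Co1, the catalytic subunit of complex IV, at 1821 and 1800 against 2229 and 3063 CPM (adjusted p = 0.0584), mt-Nd2 at 218 and 201 against 256 and 304 CPM and mt-Cytb at 721 and 710 against 890 and 953 CPM (adjusted p = 0.0576 for both). mt-Nd3 (-0.34) and mt-Nd4l (-0.30) were lower in both knockout mice and did not pass. mt-Nd6, on the other strand, was at 10.9 and 10.1 CPM in the knockout and 10.2 and 9.09 CPM in the control mice, so it overlapped (log2 0.12 ± 0.15, adjusted p = 0.606).

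**Figure D3:**
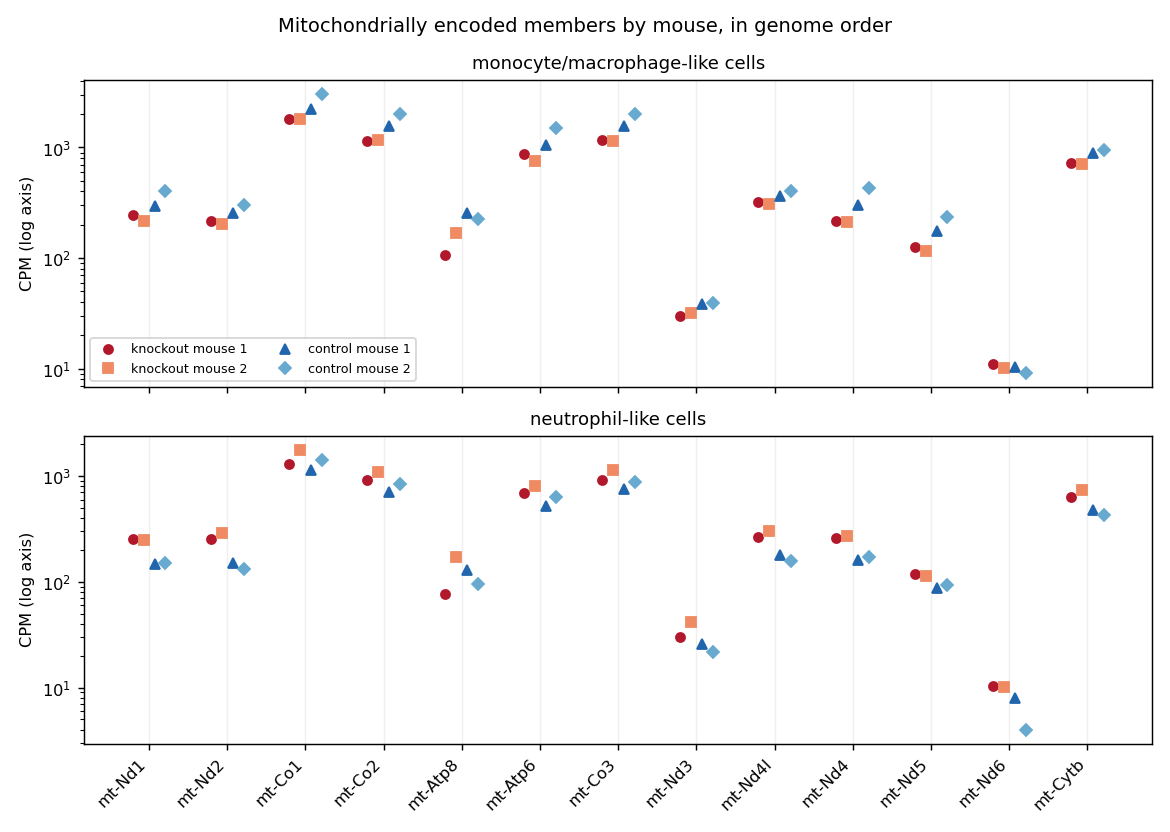
CPM of the 13 mitochondrial members (x axis, in genome order; y axis on a log scale) in monocyte/macrophage-like and neutrophil-like cells, 1 point per mouse. The knockout mice lie below the control mice for 12 genes in the first class and above them for 11 genes in the second.

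These counts rest on both knockout mice. Without knockout mouse 1 no member of either genome was called in monocyte/macrophage-like cells, and without knockout mouse 2 there were 9 nuclear and 1 mitochondrial, all lower, although the median nuclear change was -0.47 and -0.56. In those fits 1 knockout mouse is assumed to vary like the control pair. Without control mouse 2, 58 nuclear and 4 mitochondrial members were called, and without control mouse 1, 71 and 10. DESeq2 called 62 nuclear members and 10 mitochondrial members lower.

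Several other measures moved with genotype in these cells. Summed B cell markers (8 genes) were at 464 and 466 CPM in knockout against 36.9 and 20.9 in control monocyte/macrophage-like cells, summed T cell markers at 52.6 and 43.9 against 9.01 and 11.2 CPM, and summed conventional dendritic markers at 204 and 261 against 49.5 and 37.4 CPM. In cells without any UMI of the B or T cell markers, 46 nuclear members (45 lower) and 5 mitochondrial members were called. Of the 55 members and pathway genes followed by name in this class, 39 kept their call there and 16 lost it. The mix of clusters differed as well. A macrophage-like cluster led by Arg1 and Spp1 held 1.82 and 3.09% of the class in knockout mice and 29.9 and 22.4% in control mice. A monocyte-like cluster led by Vcan and Chil3 held 8.68 and 10.9% against 24.4 and 33.4%, and a macrophage-like cluster led by Gdf15 and Gpnmb held 34.2 and 34.0% against 18.5 and 8.19%.

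Members were lower within single clusters too. In the Vcan cluster 30 of 94 nuclear and 8 of 13 mitochondrial members were lower and none higher, beside 5.24% and 5.27% of all genes. In the Gdf15 cluster 28 of 93 and 5 of 13 were lower and none higher, beside 7.48% and 7.07%. A monocyte-like cluster led by F13a1 and Lyz2 had 27 of 93 and 8 of 13 lower and 1 nuclear member higher, beside 5.72% and 6.62%. A monocyte-like cluster led by Ace and Treml4 had 24 of 90 and 7 of 13 lower and 1 nuclear member higher, beside 7.39% and 7.86%. Median nuclear changes in these 4 clusters were -0.37, -0.34, -0.35 and -0.41. In a macrophage-like cluster led by Cxcl9 and C1qa, no member was called (edgeR, 1.65% of all genes were lower and 2.96% higher), 12 nuclear members had an unadjusted p under 0.05, and the medians were -0.09 for the nuclear and -0.54 for the mitochondrial members. The Arg1 cluster had too few knockout cells to be tested.

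Because many nuclear members moved together, the 250 bases upstream of their annotated starts were searched for 2 motifs known from respiratory chain promoters, the NRF1 motif (GCGCA, any base, then GCGC) and the ETS motif CCGGAAG, on both strands. Of the 97 nuclear members, 80 matched the RefSeq promoter table (GRCm38.p6). NRF1 matches were found in 14 of the 80 (17.5%), beside 4.23% of 27025 genes of the table, and ETS matches in 16 (20%), beside 7.83%. Among members lower in the knockout monocyte/macrophage-like cells, 7 of 50 (14%) had an NRF1 and 12 of 50 (24%) an ETS match, beside 7 of 30 (23.3%) and 4 of 30 (13.3%) of the other members. These shares are descriptions, and the parts for complex I (Ndufs5) and complex IV (Cox6a1) are shown, 5' to 3' on the gene's strand, because both genes fell and both hold the NRF1 motif, in capitals.
Ndufs5: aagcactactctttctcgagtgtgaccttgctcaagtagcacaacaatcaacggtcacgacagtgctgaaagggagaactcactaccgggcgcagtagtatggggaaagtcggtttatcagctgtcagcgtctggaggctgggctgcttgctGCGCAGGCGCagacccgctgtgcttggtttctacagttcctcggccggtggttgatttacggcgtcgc
Cox6a1: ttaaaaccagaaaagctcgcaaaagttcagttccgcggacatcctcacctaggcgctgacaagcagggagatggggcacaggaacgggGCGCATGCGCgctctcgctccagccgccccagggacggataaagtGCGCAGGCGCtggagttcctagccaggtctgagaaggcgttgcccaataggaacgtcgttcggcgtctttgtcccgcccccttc
The Ndufs5 stretch (chr4:123718217-123718436, minus strand) holds 1 match and the Cox6a1 stretch (chr5:115348992-115349208, minus strand) holds 2. Ndufs5 RNA had a log2 change of -0.68 in monocyte/macrophage-like cells and Cox6a1 one of -0.71.

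Conventional dendritic-like cells shared part of the pattern. The nuclear members took 2.04 and 2.09% of UMIs in the knockout mice and 2.48 and 2.64% in the control mice (log2 -0.31), and the mitochondrial members 0.599 and 0.540% against 0.658 and 0.776% (log2 -0.33). Neither overlapped between genotypes, and the exact permutation p was 0.33 for both. Of 94 nuclear members tested, 22 were lower and 1 was higher (edgeR's quasi-likelihood test), beside 5.38% and 4.96% of 10041 genes. Their median log2 change was -0.30, beside 0.02 over all genes. None of the 13 mitochondrial members was called by edgeR or by DESeq2, and 4 had an unadjusted p under 0.05.

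The 22 were spread over 9 complex I, 1 complex II, 3 complex III, 4 complex IV and 5 ATP synthase genes. Sdhc was at 49.3 and 46.8 CPM in the knockout mice against 73.7 and 87.2 in the control mice (log2 -0.74), and Ndufb6 at 109 and 126 against 189 and 196 CPM (log2 -0.71 ± 0.13, adjusted p = 0.0115). Cox8a was at 823 and 910 against 1258 and 1345 CPM (log2 -0.59, adjusted p = 0.0116). Ndufa9 (-0.63), Ndufa11 (-0.62) and Atp5a1 (-0.58) fell too, each with no overlap between genotypes. Cox6a2 had the largest change but was scarce, at 1.38 and 3.04 against 5.71 and 12.9 CPM (log2 -2.01 ± 0.54, adjusted p = 0.0466). Plasmacytoid dendritic-like cells hold most Cox6a2, and their summed markers overlapped between genotypes in conventional dendritic-like cells (331 and 479 against 484 and 417 CPM). A few plasmacytoid cells might not show in that sum, and their part was not tested. Cox7c was the member called higher, at 645 and 670.5 CPM in the knockout against 503 and 473 in the control mice (log2 0.43 ± 0.11, adjusted p = 0.0363), and with library totals as the scale its adjusted p was 0.057.

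Of the 22 genes lower in conventional dendritic-like cells, 20 were also lower in monocyte/macrophage-like cells, which is 90.9% of the former and 33.9% of the 59 of the latter. Since 59 of the 96 nuclear members tested were lower in monocyte/macrophage-like cells and both classes come from the same 4 mice, nothing is read from this overlap. The other 2 were Cox6a2 and Uqcrc1. The count depended on the control mice, with 1 nuclear member called without control mouse 1 and none without control mouse 2, and 20 and 23 without knockout mouse 1 and knockout mouse 2. DESeq2 called 8. Summed B cell markers were at 146 and 342 CPM in knockout against 14.3 and 55.5 in control conventional dendritic-like cells, and summed T cell markers at 53.4 and 55.3 against 28.0 and 29.3 CPM. In cells without any UMI of these markers, 21 nuclear and 4 mitochondrial members were lower and 1 nuclear member was higher.

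Neutrophil-like cells differed in the mitochondrial members. These took 0.571 and 0.712% of UMIs in the knockout mice and 0.450 and 0.481% in the control mice, a log2 difference of 0.45, while the nuclear members took 1.36 and 1.48% against 1.55 and 1.57%, a log2 difference of -0.13. The ratio of nuclear to mitochondrial UMIs was 2.39 and 2.08 in the knockout mice and 3.44 and 3.26 in the control mice (log2 -0.59). None of the 3 measures overlapped between genotypes (exact permutation p = 0.33 for each).

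All 13 mitochondrial members had a log2 change above 0 in neutrophil-like cells, with a median of 0.54, and 2 passed the test (edgeR's quasi-likelihood test), beside 4.46% of 9628 genes. mt-Nd2 was at 252 and 287 CPM in the knockout mice against 150.5 and 132 in the control mice (log2 0.93 ± 0.21, adjusted p = 0.0282). mt-Nd1 was at 254 and 251 against 147 and 151 CPM (log2 0.76 ± 0.20, adjusted p = 0.0480). Both are complex I subunits, and the mice of each genotype lay close together. mt-Nd4l (265 and 302 against 179 and 158 CPM) and mt-Nd4 (257 and 274 against 160 and 170 CPM) did not overlap but had adjusted p of 0.0587 and 0.0708. In 11 of the 13 both knockout mice were above both control mice, beside 27.6% of all genes, and mt-Co1 (1298 and 1759 against 1147 and 1433 CPM) and mt-Atp8 (76.8 and 173 against 130 and 94.4 CPM) overlapped.

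Of 88 nuclear members tested in neutrophil-like cells, 1 was lower and none higher, beside 3.54% and 4.46% of all genes, and the median was -0.22, beside -0.01. The one was Ndufa12, an accessory subunit of complex I, at 24.3 and 27.9 CPM in the knockout and 49.2 and 79.3 in the control mice (log2 -1.32 ± 0.28, adjusted p = 0.0252). Cox8a (891 and 984 against 1678 and 1364 CPM) and Ndufv3 (70.1 and 71.1 against 100 and 161 CPM) were lower in both knockout mice and did not pass (adjusted p = 0.0748 and 0.0729).

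The makeup of this class differed between mice. Neutrophil-like clusters led by the immature granule genes Camp, Ngp and Ltf held 277 and 39 of the 1507 cells of control mouse 2 and 10 to 43 cells in each other mouse, and within the main mature cluster 5 mitochondrial members were higher, 11 nuclear members lower and 1 higher (8.77% of all genes were lower and 10.2% higher). Summed macrophage markers were at 1449 and 1249 CPM in knockout against 824 and 890 CPM in control neutrophil-like cells, and their part in these results was not tested. Summed B cell markers were at 266 and 489 against 48.2 and 32.7 CPM. In cells without any UMI of the B or T cell markers, 1 mitochondrial member was higher and 1 nuclear member lower, and the log2 difference of the mitochondrial sum was 0.29. At a finer clustering (resolution 2) the mature cells divided unevenly by genotype. A cluster led by G0s2 and Cxcl3 held 11 and 47 knockout against 1224 and 843 control cells, and one led by Retnlg and Asprv1 held 542 and 226 against 516 and 301. Within the Retnlg cluster alone 1 mitochondrial and 0 nuclear members were called. Median UMIs per cell were 2758 and 2326 in knockout and 1764 and 1794 in control mice. Without knockout mouse 1 or knockout mouse 2, no mitochondrial member was called, and without control mouse 1 or control mouse 2, 5 and 7 were. The nuclear count was 2, 0, 23 and 8 without the same mice in that order.

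The lymphocyte classes fitted gave no calls. Clusters left unnamed lay outside all classes. One of these, led by Cd7 and Gzmc, held 768 and 934 knockout and 137 and 165 control cells. By edgeR, 3 of its 91 nuclear members were lower and 1 higher, and 3 of 13 mitochondrial members were lower. Of all 9509 genes tested in it, 158 were lower and 145 higher. Unnamed clusters led by Tnfrsf4 and Foxp3 and by St6galnac3 and Tox gave no calls. In B-like cells the mitochondrial share was lower in both knockout mice (1.23 and 1.23% against 1.44 and 1.42%) and the nuclear share overlapped (1.56 and 1.64% against 1.59 and 1.83%). In CD8 T cells both were lower in both knockout mice, with 1.88 and 2.01% against 2.09 and 2.46% for the nuclear and 0.818 and 0.785% against 0.954 and 1.00% for the mitochondrial members. The mix of clusters in this class differed as well. A cluster led by Cd8a, Cxcr6 and Pdcd1 held 856 of 1338 and 727 of 1161 knockout cells. It held 120 of 528 and 285 of 596 control cells, and the part of this mix was not tested. In CD4 conventional T cells the nuclear share was 1.89 and 2.06% against 2.11 and 2.63%, and the mitochondrial share 0.807 and 0.829% against 0.950 and 0.889%. Control mouse 2, with the 2.63%, stood apart in that class, with summed NK cell markers at 2080 CPM against 8.98 CPM in control mouse 1 and 48.9 and 128 CPM in the knockout mice. Summed B cell markers there were at 281 and 466 CPM in knockout against 56.1 and 5.03 CPM in control mice. The part of either was not tested. In NK-like cells the nuclear share was 2.19 and 2.32% against 2.36 and 2.47%, and the mitochondrial share overlapped. In all, the nuclear share was lower in both knockout mice in 6 of the 8 classes fitted, and the mitochondrial share lower in 5 and higher in 2, neutrophil-like and plasma-like cells (0.614 and 0.816% against 0.560 and 0.582%).

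No member passed in B-like cells by edgeR's quasi-likelihood test (0.13% of 11517 genes were lower and 0.0347% higher), where 7 nuclear members had an unadjusted p under 0.05. None passed in CD8 T cells (0.708% and 0.493%; 18 nuclear and 3 mitochondrial at an unadjusted p under 0.05), in CD4 conventional T cells (0.0364% and 0.0243%; 11 nuclear), in NK-like cells (0.374% and 0.601%; 15 nuclear and 1 mitochondrial) or in plasma-like cells (1.03% and 0.239%; 22 nuclear). DESeq2 also called 0 in each of these 5 classes. Median log2 changes of the nuclear members were -0.09, -0.25, -0.26, -0.14 and -0.29 in that order, beside -0.01 to 0.01 over all genes, and those of the mitochondrial members -0.15, -0.26, -0.10, -0.11 and -0.09. With library totals as the scale in plasma-like cells these medians turned positive, to 0.10 and 0.32, as the median of all genes moved by 0.37. With control mouse 1 left out, nuclear members were called in B-like, CD8 T and CD4 conventional T cells. Such a fit holds 1 control mouse, and the share of all genes called in it is not given here. Nothing about the members is read from these calls.

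Whether the genotype effect itself differed between classes was tested by a term for the class in 1 model with monocyte/macrophage-like cells. Against B-like cells 7 of 95 nuclear members differed, all with the higher log2 change in B-like cells, beside 1.46% of genes higher and 3.72% lower. They were Ndufv3 (0.93), Uqcrb (0.93), Atp5md (0.88), Cox6a1 (0.83), Cox5a (0.78), Cox8a (0.71) and Atp5g3 (0.65), and no mitochondrial member differed. Uqcrb was at 173 and 188 CPM in knockout and 135 and 147 in control B-like cells, and Cox8a at 807 and 886 against 909 and 770, so the fall of these genes was not seen there. Against CD8 T cells 1 nuclear member differed, Ndufv3 (0.88 ± 0.16, adjusted p = 0.0202, edgeR), which was at 188 and 220 CPM in knockout and 190 and 239 in control CD8 T cells (1.29% of genes were higher and 2.26% lower). These 8 calls depended on scaling. With library totals, which moved the median of all genes by -0.22 and -0.16, no nuclear member was called higher, and 1 and 2 were called lower.

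Against neutrophil-like cells, a comparison added after the data were seen, 11 of 13 mitochondrial members differed, all with the higher log2 change in neutrophil-like cells, with a median difference of 1.00 (3.06% of genes were higher and 1.79% lower). The difference was 1.43 ± 0.21 for mt-Nd4 (adjusted p = 0.00216, edgeR), 1.36 for mt-Nd1, 1.35 for mt-Nd2 and 1.00 for mt-Co2, and mt-Nd3 and mt-Nd6 did not pass. With library totals 9 of the 13 passed, and the share of all genes called on that scale is not given here. Of the nuclear members Cox7a2l (0.82) and Uqcrq (0.72) differed, and neither did with library totals. All these differences went to 0 calls without either knockout mouse. Without control mouse 1 and control mouse 2 there were 46 and 53 nuclear and 12 and 6 mitochondrial calls against B-like cells, 19 and 18 nuclear and 11 and 0 mitochondrial calls against CD8 T cells, and 12 and 0 nuclear and 12 and 9 mitochondrial calls against neutrophil-like cells.

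The T cell receptor libraries allowed a comparison within the same mice, between CD8 T cells of expanded clones (a receptor seen in at least 2 cells; 737, 622, 90 and 319 cells in knockout mouse 1, knockout mouse 2, control mouse 1 and control mouse 2) and CD8 T cells whose receptor was seen once (468, 411, 399 and 235 cells). The mitochondrial members took 0.668, 0.669, 0.715 and 0.869% of UMIs in expanded cells against 0.951, 0.898, 0.992 and 1.14% in single cells. The nuclear members took 2.03, 2.16, 2.49 and 2.73% against 1.73, 1.86, 2.01 and 2.08%. In each of the 4 mice the mitochondrial share was lower and the nuclear share higher in expanded cells, and the ratio of the 2 was 3.04 to 3.48 in expanded and 1.82 to 2.07 in single cells.

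In a fit with the mouse as a block, 12 of 13 mitochondrial members were lower in expanded cells and none higher, with a median log2 difference of -0.78 (edgeR, 11.2% of 10214 genes were lower and 11.7% higher). mt-Nd2 was at 220, 240, 176 and 208 CPM in expanded cells against 484, 431, 442 and 430 in single cells (log2 -1.07 ± 0.11, adjusted p = 1.85e-06). mt-Co1 was at 1466, 1667, 1617 and 2065 against 2689, 2527, 2717 and 2920 CPM (log2 -0.68). In both genes every expanded value lay below every single-cell value, and mt-Nd6 was the member that did not pass.

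The nuclear members divided in this comparison, with 11 higher and 6 lower of 92 tested and a median of 0.04, beside 0.01 over all genes. These shares, 12.0% and 6.52%, lay near and below the 11.7% and 11.2% of all genes, so the counts are no result about the nuclear members. Cox7a2l was lower (254, 233, 178 and 254 against 479, 423, 397 and 332 CPM, log2 -0.82 ± 0.12, adjusted p = 7.97e-05), as were Ndufa4 (178, 211, 248 and 244 against 307, 366, 338 and 356 CPM, log2 -0.66), Atp5mpl (-0.46), Ndufa6 (-0.37), Uqcrh (-0.36) and Atp5g2 (-0.36). Ndufb7 was higher (167, 187, 212 and 270 against 112, 129, 156 and 180 CPM, log2 0.54 ± 0.10, adjusted p = 0.000734), as were Ndufaf3 (0.58), Ndufb8 (0.48), Cox5a (0.38), Ndufa13 (0.35), Ndufa1 (0.34), Atp5md (0.33), Cox5b (0.33), Atp5j (0.31), Ndufc2 (0.30) and Uqcrb (0.30). With library totals, which moved the median of all genes by 0.30, 51 were higher and 2 lower, so the split among nuclear members depends on scaling, while the 12 mitochondrial calls were 12 in either case. The share of all genes called with library totals is not given here, so nothing else about the members is read from these counts. Leaving out 1 mouse gave 6 to 18 nuclear calls and 12 mitochondrial calls each time, with 7, 6, 7 and 18 nuclear calls without knockout mouse 1, knockout mouse 2, control mouse 1 and control mouse 2.

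Expanded and single cells lay in different clusters and differed in depth, with medians of 4113, 4052, 3390.5 and 3957 UMIs per expanded and 6692, 5953, 4510 and 4030 UMIs per single cell in the same order of mice, and the part of depth was not tested. A cluster led by Cd8a, Cxcr6 and Pdcd1 held 62.2 to 97.3% of the expanded cells, and a cluster led by Lef1 and Tcf7, markers of naive T cells, held 71.1 to 88.7% of the single ones. Within the first cluster alone, with 40 to 55 single cells per mouse, no mitochondrial member was called (median -0.19, 5 with an unadjusted p under 0.05) and 1 nuclear member was. The difference by genotype in the effect of clone expansion gave no calls (edgeR; 15 nuclear and 1 mitochondrial member with an unadjusted p under 0.05; 1.35% of all genes were higher and 0.421% lower).

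**Figure D4:**
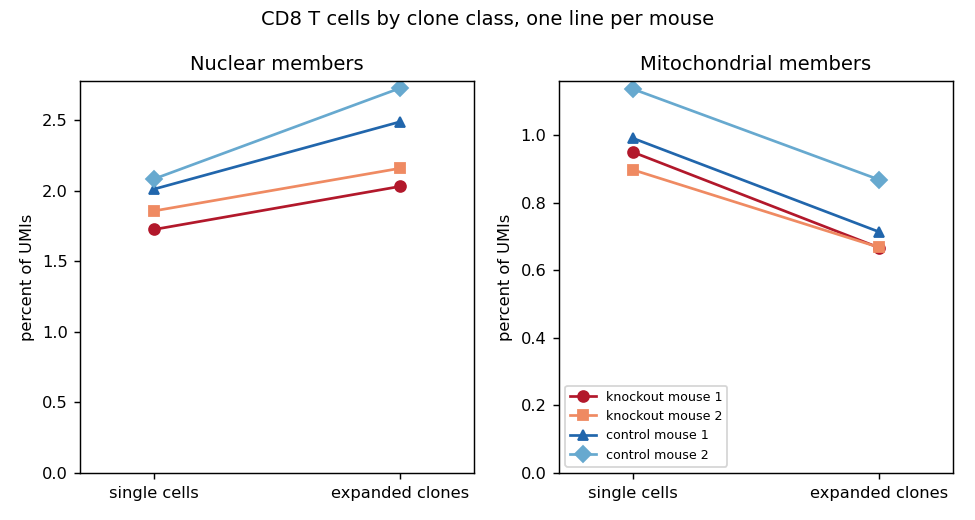
Share of UMIs from the nuclear and mitochondrial members (y axes, percent) in CD8 T cells of expanded clones and in those whose receptor was seen once (x axis), with a line joining the values of each mouse. In all 4 mice the line falls from single to expanded cells for the mitochondrial members and rises for the nuclear ones.

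Other genes of the pathway were followed in monocyte/macrophage-like cells from gene lists. Over all genes tested there, 11.4% were lower and 10.7% higher, with a median of 0.03. No list was tested as a set, and the counts of the short lists rest on few genes. Of the mitochondrial ribosome genes, which serve only the 13 mitochondrial members, 39 of 78 were lower and none higher, with a median of -0.41, among them Mrpl51 (-0.997), Mrpl36 (-0.75) and Mrpl17 (-0.71). Assembly factors of complexes III and IV had 8 of 31 lower and none higher (median -0.32), led by Higd1a (-0.998, adjusted p = 0.00223). Protein import and quality control genes had 5 of 16 lower and 1 higher (median -0.35), with Timm17a (-0.71), Timm23 (-0.58) and Tomm20 (-0.54) of the import channels among the 5. Citric acid cycle genes had 3 of 17 lower, Idh3a (-0.84), Mdh2 (-0.68) and Suclg1 (-0.55), and none higher.

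The remaining lists held calls in both directions, beside the same 11.4% lower and 10.7% higher of all genes. Only the transcription and the biogenesis lists had medians close to the 0.03 of all genes. Mitochondrial transcription and RNA processing had 3 of 27 higher and 3 lower (median 0.08), with Mterf1a (1.09) and Polg2 (0.63) higher and Fastk (-0.62) lower. Regulators of mitochondrial biogenesis had 1 of 12 higher, Myc (1.08), and 2 lower, Ppargc1b (-0.74), a coactivator of respiratory genes, and Ppard (-0.64), with a median of 0.04. Electron carriers and ubiquinone synthesis had 1 higher, Coq8a (1.75), and 3 lower of 18, with Coq7 (-0.99) and Etfb (-0.95) among them (median -0.11). Antioxidant genes had 1 higher, Cat (0.54), and 3 lower of 12, with Gpx4 (-0.65) and Sod2 (-0.44) among them (median -0.28).

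In conventional dendritic-like cells 4 of 78 mitochondrial ribosome genes were lower, beside 5.38% of all genes, so this count was near the background. Lower too were 3 of 18 genes of the electron carrier and ubiquinone list and 3 of 17 citric acid cycle genes, with Fh1 (-0.73). The former include Cyc1 (-0.73), which encodes cytochrome c1 of complex III and whose symbol the member rule does not take. In the same cells Ppargc1b fell by 2.11 and Higd1a by 0.64 on the log2 scale, and Cat (0.75) and Hspe1 (0.92) rose. In neutrophil-like cells Higd1a (-0.87), Timm17a (-1.02) and Mrpl51 (-1.25) fell and Hspe1, the mitochondrial co-chaperonin, rose (1.26). In neutrophil-like cells without any B or T cell marker UMI, Higd1a and Mrpl51 did not pass.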

How the data were processed

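The authors deposited unscaled UMI counts for each gene in each barcode, and contig tables with counts of reads and UMIs for each receptor contig. Per the submitters' processing notes, Cell Ranger 8.0.1 and GRCm39 were used, and Seurat 5.0.1 and R 4.4.1 are named. Barcodes under 200 genes or over 10% mitochondrial UMIs were dropped, and 309 to 515 doublets per library, called by Scrublet at an expected 0.8% per 1000 cells, were removed. Cells were clustered with scanpy 1.11.5 (2000 variable genes, 30 components, 20 neighbours, Leiden resolution 1) on counts scaled to 10000 per cell, and clusters were named where at least 3 markers had a fold of 2 and were seen in 10% of cells. Within T-like clusters, CD8 T cells had UMIs of Cd8a or Cd8b1 but not Cd4, and CD4 conventional T cells the reverse and no Foxp3 UMI. A rebuilt class may differ from the study's own.

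For the 8 classes that held 30 or more cells in each mouse, UMIs were added up by mouse. Genotypes were compared by edgeR 4.0.16 in R 4.3.3 (two-sided quasi-likelihood test, robust fit, TMM factors after filterByExpr, p-values adjusted by Benjamini-Hochberg over all genes tested, threshold 0.05). Members' CPM in these comparisons are TMM-scaled, whereas levels over classes are scaled by the class total alone. UMI counts carry no gene length, so levels of different genes are not compared. The 4 mice are separate animals, and 2 per group limit precision. Clone and class-difference fits had the mouse as a block. DESeq2 1.42.0 was an alternative test. In simulated counts 57% of genes changed 2-fold were recovered in monocyte/macrophage-like cells, 35% in B-like and 26% in neutrophil-like cells, and 17 of 156, 9 of 123 and 24 of 132 calls there were genes not changed in the simulation, above the 5% of the threshold.

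Members named are the 13 mitochondrial genes, isoform pairs, up to 5 called genes in each direction per class, the 3 highest per complex and the 5 with the widest and narrowest ratio of class means, plus called genes listed for completeness. The members and all lists were chosen with earlier results of these data known. Atp5 symbols are the older ones of the files. Atp5if1 gave no value under that symbol.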

Additional observations from a re-analysis of the deposited data

Results flagged for a closer look

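The genotype effect differed between classes, by a term for that difference, in 1 nuclear member between CD8 T and monocyte/macrophage-like cells (Ndufv3) and in 7 between B-like and monocyte/macrophage-like cells. Between neutrophil-like and monocyte/macrophage-like cells it differed in 2 nuclear members, Cox7a2l and Uqcrq, and in 11 of the 13 mitochondrial members, all but mt-Nd3 and mt-Nd6. Each was counted because the test of the difference itself (edgeR's quasi-likelihood test) gave an adjusted p under 0.05. Over all genes, 1.29% were higher and 2.26% lower for CD8 T, and 1.46% and 3.72% for B-like cells. For neutrophil-like cells, a comparison added after the data were seen, these shares were 3.06% and 1.79%. With library totals as the scale, none of these nuclear calls passed.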

How the results depend on the processing

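Shares of all genes called in fits with 1 mouse left out are not given here, so the ranges show only dependence on single mice. Counts of called members ranged with 1 mouse left out as follows, nuclear first. They were 0 to 14 in B-like cells, 0 to 12 and 0 to 2 (mitochondrial) in CD8 T, 0 to 7 in CD4 conventional T, 0 to 1 in NK-like, 0 to 71 and 0 to 10 in monocyte/macrophage-like, 0 to 23 and 0 to 7 in neutrophil-like, 0 to 23 and 0 to 5 in conventional dendritic-like and 0 to 6 nuclear in plasma-like cells. Class differences ranged from 0 to 19 and 0 to 11 for CD8 T, 0 to 53 and 0 to 12 for B-like and 0 to 12 and 0 to 12 for neutrophil-like cells, and clone calls from 6 to 18 nuclear. The log2 differences of summed members ranged from -0.36 to -0.29 (nuclear), -0.58 to -0.27 (mitochondrial) and -0.02 to 0.22 (ratio) in monocyte/macrophage-like cells, from -0.19 to -0.07, 0.30 to 0.61 and -0.68 to -0.49 in neutrophil-like cells, and from -0.35 to -0.26, -0.45 to -0.21 and -0.07 to 0.11 in conventional dendritic-like cells.

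In monocyte/macrophage-like cells the 6 mitochondrial calls became 10 without the count filter, 10 with DESeq2, 11 with at most 5% mitochondrial UMIs, 10 at clustering resolution 0.5, 11 at resolution 2, 10 without proliferation-marked cells and 0 in the Cxcl9 cluster alone. The 60 nuclear calls became 0, 28, 25, 28 and 30 in single clusters, which hold fewer cells. Without the count filter nuclear calls were 5 in CD8 T, 1 in CD4 conventional T, 1 in NK-like, 11 in neutrophil-like and 5 in plasma-like cells, and mitochondrial calls 4 in conventional dendritic-like cells. NK-like cells also gave 1 nuclear call at resolution 0.5 and 1 at resolution 2, and plasma-like cells 28 at resolution 2. The plasma-like cluster of resolution 2 held other cells, 377 beside 209 at resolution 1, and 5 B cell markers also passed in it. It held 141 and 121 knockout and 72 and 43 control cells. In neutrophil-like cells nuclear calls were 10 with doublets kept, 2 without proliferation-marked cells and 0 in 1 subcluster, and mitochondrial calls were 1 with DESeq2, with no mitochondrial limit, with at least 500 genes, in 1 subcluster and in cells with no B or T marker UMI. Conventional dendritic-like cells gave 8 nuclear calls with DESeq2, and 1 mitochondrial call with library totals and 1 without proliferation-marked cells, and 4 in cells with no B or T marker UMI. Library totals gave 2, 1 and 0 nuclear class differences (CD8 T, B-like, neutrophil-like) and 53 nuclear clone calls. In 1 T-like cluster alone clone calls were 1 nuclear and 0 mitochondrial, and 5 log2 differences changed sign: Cox5b (-0.0224), Cox5a (-0.0813), Uqcrb (-0.0712), Atp5md (-0.0530) and mt-Nd3 (0.21). The cause was not tested.

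The nuclear sum in monocyte/macrophage-like cells differed by -0.27 in macrophage-like and -0.38 in monocyte-like clusters alone, the mitochondrial sum by -0.60 at resolution 2, and the ratio by 0.24 at resolution 0.5 and 0.30 at resolution 2. In neutrophil-like cells the nuclear sum differed by -0.27 with doublets kept, -0.065 at resolution 0.5 and -0.23 at resolution 2, and the ratio by -0.77 at resolution 2. In neutrophil-like cells with no B or T marker UMI the mitochondrial sum differed by 0.29 and the ratio by -0.44.

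With the replicate number of the labels as a replicate block, 53 nuclear and 4 mitochondrial members were called in monocyte/macrophage-like, 26 and 2 in conventional dendritic-like, 1 mitochondrial in neutrophil-like and 1 nuclear in NK-like cells. Deviations of same-numbered mice correlated between -0.05 and 0.12 over genes. Whether same-numbered mice were handled together is not given by the labels and was not tested. Plasma-like cells without proliferation-marked cells were not run, since too few cells remained in 1 mouse.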
